A study of Homo sapiens with 2 samples.

Results

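Poly(A)+ RNA of HEK293T cells that had been heated for 20 min at 43 °C and returned to 37 °C for 6 h was examined for 10 genes that mark epithelial or mesenchymal cells. HEK293T is a line derived from human embryonic kidney, and the labels give its genotype as wild type. The genes were taken by name and matched by symbol to the Ensembl identifiers of the tables, and all 10 were found among the 57736 genes listed. They were KRT8, KRT18, KRT19, CDH1 and EPCAM on the epithelial side and CDH2, VIM, FN1, ZEB1 and ZEB2 on the mesenchymal side. The series held 2 libraries, both from heat-shocked cells, with the cells of each replicate lysed separately. Untreated cells were not analysed here, so every value below is a level after heat shock and none is a response to it.

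Epithelial cells form sheets, held together by E-cadherin junctions and braced by keratin filaments. Mesenchymal cells move singly, lay down fibronectin and fill their cytoplasm with vimentin, and many carry N-cadherin in place of E-cadherin. In the epithelial to mesenchymal transition the zinc finger repressors ZEB1 and ZEB2 bind E-box sequences and silence epithelial genes, while microRNAs of the miR-200 family hold down both ZEB transcripts. Cultured kidney-derived lines often carry markers of both kinds.

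Levels are given in TPM, transcript abundances that are normalised to library size and scaled to transcript length, so that levels of different genes can be set side by side. The libraries held 22529828 expected counts in replicate 1 and 26890199 in replicate 2, where an expected count is a read total in which ambiguous reads were shared among genes. A gene was called detected where each library gave it 1 TPM or more, which 63.8% of 19391 protein-coding genes reached, with a median of 18.6 TPM among those detected. The 6 endothelial markers matched summed to 0.87 and 0.96 TPM with 0 detected. Among blood markers PTPRC, the leukocyte common antigen, was at 0, HBA1, an alpha globin gene, was at 9.24 and 7.61 TPM, and CD68 was at 1.47 TPM in each library. The 6 liver and lung markers had 0 detected.

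Markers of both kinds were present, with the mesenchymal side higher. All 5 mesenchymal genes and 3 of 5 epithelial genes were detected. VIM led at 647 ± 51.6 TPM (SD, n = 2, as for every SD below), followed by KRT18 at 52.6 ± 7.78, CDH2 at 43.1 ± 1.72 and FN1 at 31.0 ± 2.96. ZEB1, ZEB2 and KRT8 formed a middle group, CDH1 came below them, and EPCAM and KRT19 were not detected. Of all neighbours in this order, ZEB1 with ZEB2 and ZEB2 with KRT8 had library ranges that overlapped, and the other neighbouring pairs did not overlap. In bulk RNA a larger number of cells with a transcript and more of it per cell cannot be told apart, so it was not measured whether the same cells held both kinds of marker.

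**Figure D1:**
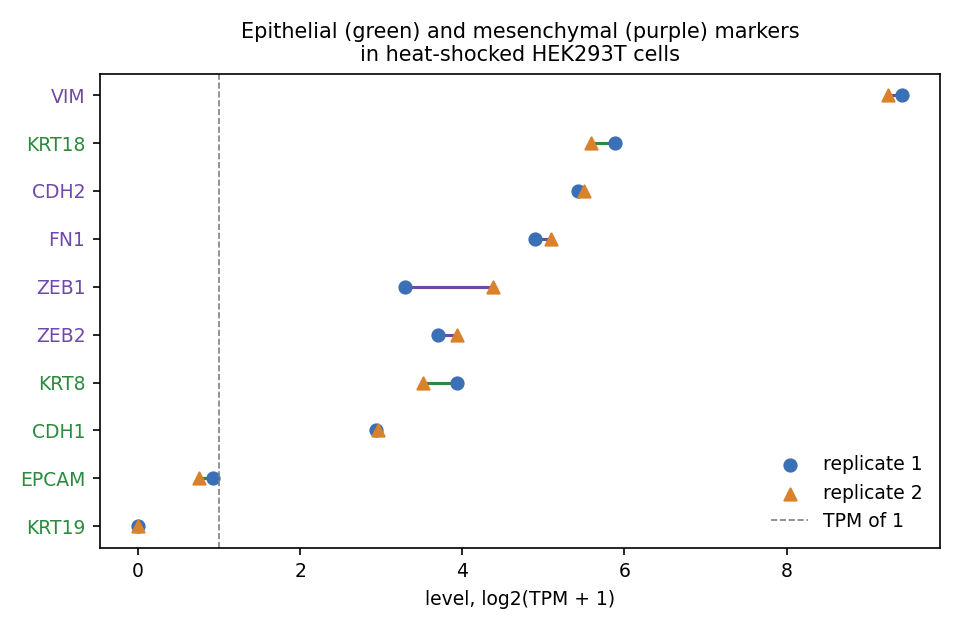
Level of each marker as log2(TPM + 1), with a circle for replicate 1 and a triangle for replicate 2, epithelial names in green, mesenchymal names in purple and a dashed line at a TPM of 1. VIM stands apart at 684 and 611 TPM, KRT18 lies among the mesenchymal genes, and EPCAM and KRT19 lie left of the line.

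KRT8 and KRT18 encode the type II and type I keratins that pair in simple epithelia. KRT18 (ENSG00000111057; GRCh37 chr12:53342655-53346690, plus strand) stood at 58.1 and 47.1 TPM in replicates 1 and 2. KRT8 (ENSG00000170421; chr12:53290971-53343738, minus strand) stood at 14.2 and 10.5 TPM. Both keratins were higher in replicate 1, and the libraries of the partner genes did not overlap. Within each library the RNA of KRT18 exceeded that of KRT8, 4.08-fold in replicate 1 and 4.50-fold in replicate 2. KRT18 ranked at percentile 78.0 of detected protein-coding genes and KRT8 at percentile 38.5.

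The keratin counts carry a limit from their copies. The genome holds 51 annotated KRT8 pseudogenes and 67 of KRT18, and 11.4% of the 50-base sequences of KRT8 transcripts and 16.2% of those of KRT18 also occur in other genes. The KRT8 pseudogenes took 107 and 145 expected counts, or 23.3% and 31.96% of the counts of KRT8 and its copies together. For KRT18 the share was 3.25% and 4.64%. The copy with the most counts, KRT8P12 (chr3:160283235-160287036), was at 3.23 and 3.44 TPM and was the 1 copy detected, ahead of KRT18P5, KRT8P46, KRT8P33 and KRT18P4, none of which passed 0.63 TPM. KRT8 and KRT18 also share 525 exonic bases on opposite strands, 17.1% of the exonic bases of KRT18 and 7.63% of those of KRT8. Whether counting used the strand is not given in the sources used, and how reads from this stretch were divided was not tested.

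KRT19 (ENSG00000171345; chr17:39679869-39684560, minus strand), the small type I keratin of many glandular epithelia, had 0 expected counts in both libraries. A count of 0 allows up to 3 counts, equal to 0.236 TPM in replicate 1 and 0.208 TPM in replicate 2, for counting error only. The posterior bounds deposited with the zeros ran from 0.194 to 1.10 TPM and from 0.178 to 0.979 TPM, so they did not include the listed value. Of the 5 KRT19 pseudogenes 1 had any counts, at 2 and 1.

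CDH1 encodes E-cadherin, the calcium-dependent adhesion protein of epithelial junctions. CDH1 (ENSG00000039068; chr16:68771195-68869440, plus strand) was at 6.65 and 6.75 TPM, from 390 and 435 expected counts. It was detected in both libraries and was the lowest of the detected markers, at percentile 23.2 of detected protein-coding genes. EPCAM (ENSG00000119888; chr2:47572297-47614740, plus strand), the epithelial cell adhesion molecule, was at 0.89 and 0.68 TPM. Each library gave it 21 expected counts, with an exact 95% Poisson interval from 13 to 32.1, so its reads were above 0 but its level was under 1 TPM.

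CDH2 encodes N-cadherin, the cadherin of neural and mesenchymal cells. CDH2 (ENSG00000170558; chr18:25512843-25757910, minus strand) was at 41.9 and 44.3 TPM. Within each library it exceeded CDH1, by 6.30-fold and 6.57-fold. The log2 ratio of the cadherins was 2.69 ± 0.04, the smallest SD among the 9 TPM ratios computed. Both cadherins were detected, and the levels of the libraries were far apart between the genes and close within each gene.

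VIM encodes vimentin, the intermediate filament of mesenchymal cells. VIM (ENSG00000026025; chr10:17270240-17279592, plus strand) was at 684 and 611 TPM, from 16684 and 17783 expected counts. It held rank 127 among protein-coding genes, at percentile 99.0 of those detected. It exceeded KRT18 11.8-fold and 12.96-fold and KRT8 48.0-fold and 58.3-fold. Its deposited TPM lay above its posterior bounds in both libraries, 647 to 678 in replicate 1 and 580.1 to 607 in replicate 2. VIM shares 656 exonic bases with VIM-AS1 on the opposite strand, which was given 20.8 and 31.0 expected counts.

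FN1 encodes fibronectin, a secreted matrix protein that integrins bind. FN1 (ENSG00000115414; chr2:216225163-216300796, minus strand) was at 28.9 and 33.1 TPM from 2606 and 2968 expected counts. Replicate 2 was higher in TPM but lower once its counts were scaled to library size, where the log2 ratio was −0.09. The average transcript length assigned to FN1 differed too, at 4989 bases in replicate 1 and 4367 in replicate 2, a factor of 0.875 that enters TPM.

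ZEB1 and ZEB2 encode the repressors of CDH1 and other epithelial genes. ZEB1 (ENSG00000148516; chr10:31607424-31818742, plus strand) was at 8.79 and 19.8 TPM, from 520 and 1378 expected counts. ZEB2 (ENSG00000169554; chr2:145121931-145278624, minus strand) was at 11.9 and 14.2 TPM, from 661 and 1182 expected counts. Both were higher in replicate 2, and their order changed between the libraries, with ZEB1 at 0.736 of ZEB2 in replicate 1 and at 1.39 times ZEB2 in replicate 2. In expected counts the same ratio was 0.786 and 1.16. Their sum exceeded CDH1 3.12-fold and 5.04-fold. The average length assigned to ZEB2 was 3082 bases in replicate 1 and 4045 in replicate 2, and that of ZEB1 was 3293 and 3410. The deposited TPM of ZEB1 lay below its own posterior bounds in both libraries, 9.09 to 12.2 in replicate 1 and 19.9 to 23.8 in replicate 2, and that of ZEB2 lay below its lower bound of 14.46 in replicate 2. Of the 10 markers 7 lay within their bounds in replicate 1 and 6 in replicate 2.

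The miR-200 family is known for repressing both ZEB transcripts, and its mature sequences, from the RefSeq table, are shown because the seed defines which transcript sequences they can pair with. Capitals mark the seed, bases 2 to 8, and the family falls into a pair of seed groups that differ at 1 base. The first group holds 3 members and the second 2.
hsa-miR-200b-3p: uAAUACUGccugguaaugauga
hsa-miR-200c-3p: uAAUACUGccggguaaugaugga
hsa-miR-429: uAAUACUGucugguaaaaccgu
hsa-miR-200a-3p: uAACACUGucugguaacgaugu
hsa-miR-141-3p: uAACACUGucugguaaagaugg

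The matches to these seeds, CAGTATT for the first group and CAGTGTT for the second, were counted in the 3′ untranslated region of 1 reference transcript per marker (GRCh37). ZEB1 held 9 matches in 2540 bases, 6 of CAGTATT and 3 of CAGTGTT. ZEB2 held 9 in 5370 bases, 5 and 4. FN1 held 2 in 690 bases, and the other 7 markers held 0. Among regions of like length, 46.2% of 1161 held any match for ZEB1, with a median of 0, and 71.5% of 555 for ZEB2, with a median of 1. Over all 18578 reference regions, 16.4% held CAGTATT and 18.5% held CAGTGTT. Examples are shown with the match in capitals and the strand of the gene, first a site of each seed group in ZEB1 (chr10:31817421-31817442, plus, and chr10:31817711-31817732, plus) and then a site of each in ZEB2 (chr2:145146198-145146219, minus, and chr2:145146803-145146824, minus).
ZEB1 first seed group: tgatttttacctatCAGTATTa
ZEB1 second seed group: gagatttgatttaaCAGTGTTa
ZEB2 first seed group: tgaagcacccatgtCAGTATTa
ZEB2 second seed group: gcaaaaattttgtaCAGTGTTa

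A match is a description of sequence and not a measured site. The 5 hairpin genes of the family had 0 expected counts in both libraries. ZEB1 and ZEB2 were detected as genes, and whether their RNA held the regions searched was not measured. The average length assigned to ZEB2, 3082 and 4045 bases, was shorter than the 5370 bases of its region. Libraries of poly(A)+ RNA do not capture mature microRNAs, so the level of the family was not measured.

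The E-box CACCTG, or CAGGTG on the other strand, is bound by ZEB and SNAI proteins, and it was searched in RefSeq promoter windows from 250 bases before to 50 bases after a start (GRCh38.p14). Windows were matched for KRT8, CDH2, VIM, FN1, ZEB1 and ZEB2, 13 in all, of which 7 were at ZEB1. KRT18, KRT19, CDH1 and EPCAM had no window, so their promoters were not searched. KRT8, VIM, FN1 and ZEB2 had 1 window each, so any other start of these genes was not searched. Of the 13 windows 2 held the motif, both at ZEB1. Of 35116 windows of all genes, 20.6% held it. The ZEB1 window with 3 matches (chr10:31318966-31319265, plus strand) is shown because it held the most, with the motif in capitals.
ZEB1 promoter window: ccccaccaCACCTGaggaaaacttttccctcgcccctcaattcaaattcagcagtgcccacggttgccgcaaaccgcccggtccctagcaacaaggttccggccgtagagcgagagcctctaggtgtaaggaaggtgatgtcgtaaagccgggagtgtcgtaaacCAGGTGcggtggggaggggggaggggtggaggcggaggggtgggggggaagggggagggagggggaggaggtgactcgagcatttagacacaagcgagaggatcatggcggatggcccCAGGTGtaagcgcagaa

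The comparison of the sides within TPM gave a mesenchymal excess. The epithelial genes summed to 79.9 and 65.0 TPM, of which KRT18 made up 72.7% and 72.5%. The mesenchymal genes summed to 775 and 722 TPM, of which VIM made up 88.2% and 84.6%. The mesenchymal sum exceeded the epithelial sum 9.70-fold in replicate 1 and 11.1-fold in replicate 2, a log2 ratio of 3.38 ± 0.14 that was larger than the spread between the libraries. The ratio was not tested, since an exact permutation test over 2 libraries cannot reach 0.05. The size of the summed excess rested largely on 1 gene. Without VIM, an alternative chosen after the values were seen, the ratio was 1.15-fold and 1.71-fold. That is a log2 ratio of 0.49 ± 0.41, little more than the spread. This alternative kept KRT18, the highest epithelial gene. With KRT18 and VIM both left out, a planned setting, the log2 ratio was 2.35 ± 0.40. As a difference of mean log2(TPM + 1) over all 10 genes it was 2.84 ± 0.32.

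**Figure D2:**
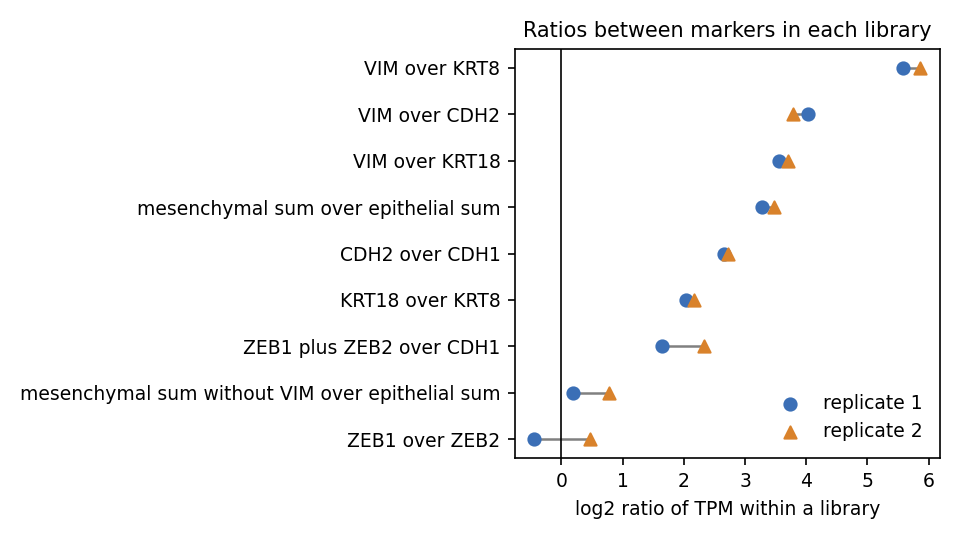
Log2 ratio of TPM between markers, or between sums of markers, within replicate 1 (circles) and replicate 2 (triangles), with a line at equal levels. The ratios that involve ZEB1 and the sum without VIM move most between the libraries, ZEB1 over ZEB2 crosses 0 from −0.44 to 0.47, and CDH2 over CDH1 moves least.

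The libraries were then compared gene by gene on their counts, to show how far each marker differed between replicates. An exact two-sided binomial test on rounded expected counts, scaled by TMM and adjusted by Benjamini-Hochberg over 19714 genes, compared these 2 libraries and not conditions, and covered counting error only. KRT19 could not be tested. Of the other 9 markers 6 were called at an adjusted p under 0.05, or 66.7%, against 42.2% of all genes tested. KRT8, KRT18, VIM and FN1 were higher in replicate 1 and ZEB1 and ZEB2 in replicate 2, where 20.1% and 22.1% of all genes were called in these directions. The background shows that such calls were common across the table.

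ZEB1 differed most among the markers. Its log2 ratio of replicate 2 over replicate 1 was 1.12 (adjusted exact binomial p = 3.319e-55), and it was the 1 marker whose ratio reached 1 in size, as did 9.23% of all genes, 7.45% with replicate 2 higher. ZEB2 followed at 0.56 (adjusted exact binomial p = 8.467e-15). Both lay above 0. All other tested markers lay below it in this scaling, CDH2, VIM and FN1 as well as the 4 epithelial genes. As a ratio of TPM, CDH1 was at 0.02, CDH2 at 0.08 and FN1 at 0.19. KRT8 gave −0.47 (adjusted exact binomial p = 1.138e-04) and KRT18 gave −0.38 (adjusted exact binomial p = 1.398e-11). VIM gave −0.19 (adjusted exact binomial p = 7.525e-33) and FN1 gave −0.09 (adjusted exact binomial p = 0.0381). CDH1 at −0.12, EPCAM at −0.28 and CDH2 at −0.02 were not called, and for EPCAM the counting error of 21.8% in each library limits what could be seen.

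The ratios moved with base composition. Among the 13544 genes with 100 or more counts in sum, log2 ratios had a median of 0.67 in the tenth lowest in GC content and of −0.25 in the tenth highest in it. ZEB1 and ZEB2 had the lowest GC content of the tested markers, 41.3% and 41.6%, and KRT18 and KRT8 the highest, 56.9% and 57.9%. With the trend in GC content removed, the ratio of ZEB1 was 0.80 (adjusted exact binomial p = 1.986e-27) and that of ZEB2 0.27 (adjusted exact binomial p = 8.059e-04). KRT8 at −0.27 was no longer called (adjusted exact binomial p = 0.05737), nor was FN1 at −0.03. KRT18 at −0.17 and VIM at −0.06 remained called, and CDH2 at −0.16 was called in this setting only among the corrections of counts tried (adjusted exact binomial p = 7.468e-05). In that setting 26.8% of all genes were called. The biological coefficient of variation between the libraries over all genes was 0.202. An edgeR exact test with an assumed coefficient of 0.1 allowed less spread than this. It called ZEB1 alone of the 9 markers (adjusted edgeR exact p = 3.152e-05), against 7.24% of all genes. No test was run at the measured coefficient.

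**Figure D3:**
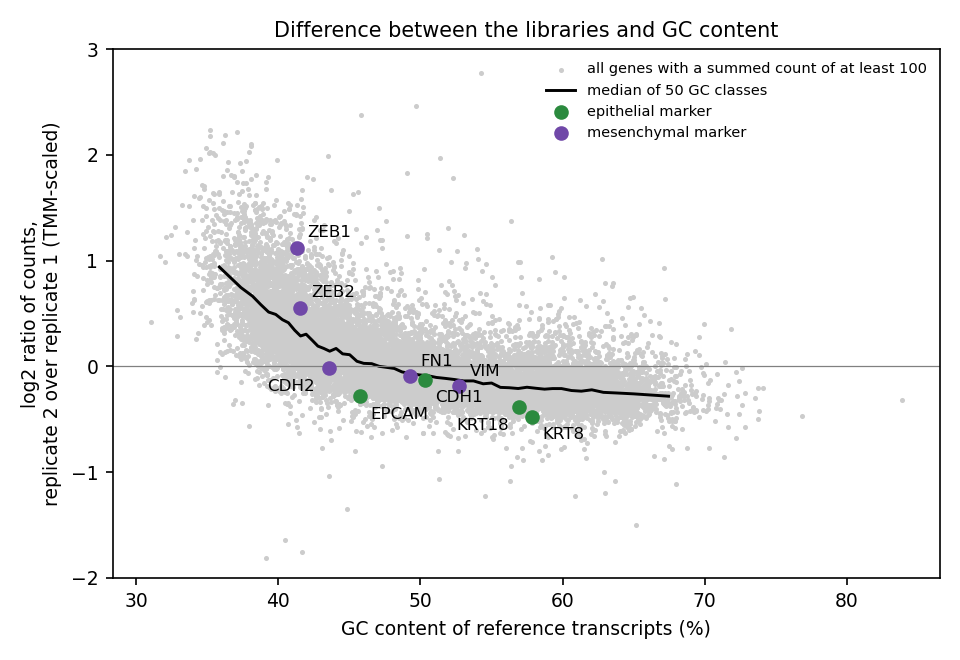
Log2 ratio of TMM-scaled counts, replicate 2 over replicate 1, against the GC content of reference transcripts in percent, for 13544 genes in grey (5 lie outside the axis) and the 9 tested markers in green (epithelial) and purple (mesenchymal). The black line of class medians falls with GC content, ZEB1 and ZEB2 lie above it at its left, and KRT18 and KRT8 lie below it at its right.

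ZEB1 has an antisense partner. ZEB1-AS1 shares 396 exonic bases with ZEB1 on the opposite strand and 3.16% of the 50-base sequences of ZEB1 occur in it. It was at 8.52 and 13.2 TPM, from 214 and 393 expected counts, and like ZEB1 it was higher in replicate 2, with a log2 ratio of 0.59 (adjusted exact binomial p = 4.597e-06). The posterior SD of ZEB1 was 1.13 and 1.38 counts in the replicates, against counts of 520 and 1378. For ZEB2, 14.8% of its sequences occur in other genes, and 10.65% occur in AC009951.1. That gene shares 2966 exonic bases with ZEB2 on the same strand and took 1 and 2 expected counts. ZEB2-AS1 shares 1299 exonic bases on the opposite strand and took 3.67 and 7.54 expected counts.

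The genes around the markers were described by lists, with the count detected beside the 63.8% of all protein-coding genes. Of 11 other transcription factors of the transition 10 were detected. They were led by TCF3, an E-protein, at 122 ± 2.41 TPM, then SNAI2, the Slug repressor, at 23.7 ± 5.39 and TWIST1 at 22.9 ± 0.32, and SNAI3 was the lowest detected at 1.61 ± 0.16. Of 12 epithelial regulators 4 were detected, KLF5 at 35.2 ± 2.10, ESRP2, a splicing regulator of epithelial isoforms, at 23.8 ± 0.06, GRHL1 at 4.43 ± 0.83 and KLF4 at 2.52 ± 0.08 TPM. The medians of the lists were 4.95 and 0.212 TPM, against 6.18 over all protein-coding genes.

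Among filament genes the keratins beyond KRT8 and KRT18 were nearly silent. Of 13 other keratins KRT10 was detected, at 6.44 and 5.96 TPM, and 7 were at 0 in both libraries. KRT13 and KRT15 followed at mean levels of 0.46 and 0.04 TPM, KRT13 with 1 and 13 expected counts. Of 11 other intermediate filament genes 9 were detected, led by the nuclear lamins LMNB2 at 184 ± 13.7, LMNB1 at 133 ± 4.16 and LMNA at 99.5 ± 13.7 TPM. NEFM and INA, filament genes of neurons, came next at 50.8 ± 8.03 and 19.9 ± 1.51 TPM, while NEFH was not detected. SYNM was the lowest detected at 2.595 ± 0.26. VIM lay above each gene of this list.

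Among adhesion genes 3 of 20 other cadherins were detected, CDH3 (P-cadherin) at 6.76 ± 0.04, CDH24 at 5.49 ± 0.19 and CDH22 at 1.74 ± 0.28 TPM. CDH3 was thus at the level of CDH1, and CDH2 was above both. Of 7 catenins, a family of cadherin partners, 4 were detected. These were CTNNA1 at 150 ± 6.82, CTNNB1 at 83.1 ± 3.44, CTNND1 at 56.9 ± 4.68 and JUP at 53.6 ± 4.12 TPM. Of 19 epithelial junction genes 10 were detected, led by the desmosomal DSG2 at 42.7 ± 8.01 and DSP at 36.3 ± 2.58 and the tight junction scaffold TJP1 at 34.2 ± 5.30 TPM, with TJP3 lowest at 3.79 ± 0.25. Of 15 epithelial surface and secretory genes 6 were detected, with SPINT2, a membrane protease inhibitor, at 43.4 ± 3.59, ITGA6 at 12.2 ± 1.73, ITGB4 at 7.66 ± 1.195 and ERBB3 lowest at 3.96 ± 0.10 TPM.

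Of 8 integrins that bind fibronectin 6 were detected. ITGB1, the common beta chain, was at 148 ± 25.8, ITGA5 at 21.5 ± 1.43, ITGAV at 12.1 ± 6.49 and ITGA8, the lowest, at 3.33 ± 0.18 TPM. ITGAV, at 7.48 and 16.7 TPM, was higher in replicate 2 with a log2 ratio of 0.98 (adjusted exact binomial p = 1.098e-39). Its GC content was 38.1%, and removal of the GC trend left a log2 ratio of 0.30. Of 21 matrix genes 13 were detected, led by SPARC at 118 ± 1.79, COL6A1 at 98.8 ± 6.26 and COL6A2 at 44.7 ± 8.59 TPM, with COL3A1, a fibrillar collagen of fibroblasts, lowest at 1.82 ± 0.35. Of 12 markers of fibroblasts and other mesenchymal cells 3 were detected, ACTA2 at 7.46 ± 1.00, TAGLN at 2.43 ± 0.08 and NT5E at 1.13 ± 0.06 TPM. The high level of VIM was thus not matched by the list of fibroblast cell markers, whose median was 0.588 TPM.

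**Figure D4:**
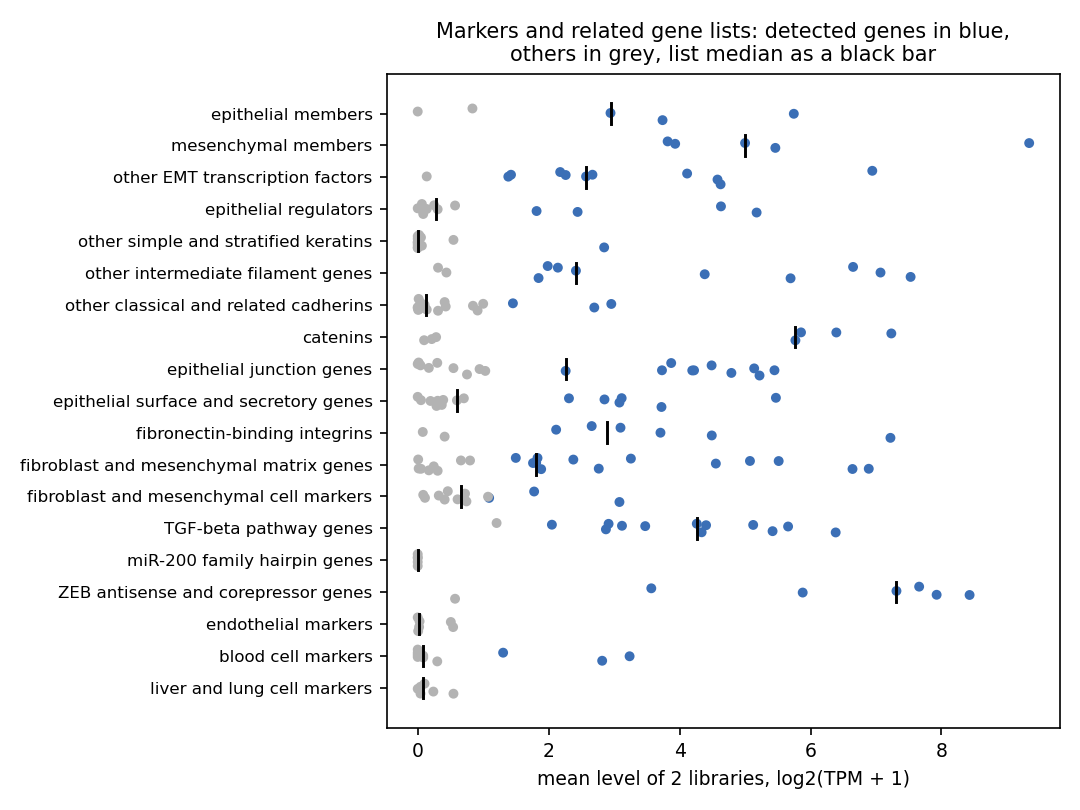
Mean level over both libraries as log2(TPM + 1) for each gene of the markers and of 17 related lists, with detected genes in blue, other genes in grey and a black bar at each list's median. Catenins and corepressors lie high, the transition factors are nearly all blue, and the other keratins, other cadherins and miR-200 hairpins lie at or near 0.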

How the data were processed

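The 2 replicate libraries of 1 group were used, grouped by their labels. In the labels the molecule stands as genomic DNA, although their protocol describes poly(A)+ RNA read at 50 bp. The submitters' processing notes name Trimmomatic 0.36, STAR 2.6.1c, RSEM 1.3.1 and hg19 (GRCh37.p13). The paper's methods name featureCounts, but the columns are those RSEM writes. The heating time of 20 min is that of the labels, and the paper gives a longer time at 43 °C. Expected counts were deposited by the authors as read estimates with ambiguous reads shared among genes, and can move between near-identical genes. TPM values were deposited by the authors scaled to length and to 1000000 per library. FPKM values deposited by the authors served as an alternative unit. A pooled table was read as the authors' values.

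Members and lists were chosen with earlier results of these data known. The text names the 10 markers, the 3 highest genes by mean TPM and the lowest detected gene of every other list, and the 5 keratin copies with most counts. PTPRC, ZEB2-AS1, AC009951.1, VIM-AS1, NEFM, INA, NEFH and genes without counts were singled out after their values were seen. Of 57736 identifiers, 96.1% matched a GENCODE annotation of GRCh37. NEFL, CD24 and PECAM1 were not matched. A gene of the blood marker list is not reported here. Promoters and microRNAs were taken from RefSeq (GRCh38.p14).

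Expected counts were rounded to whole numbers and tested in Python 3.11.15 with scipy 1.17.1, by the exact binomial test with TMM shares from edgeR 4.0.16 in R 4.3.3, where the libraries summed to 10 or more counts. Log2 ratios had a pseudocount of 0.5 count. The GC trend was the median in 50 classes of genes with 100 or more counts. On counts simulated over 19295 genes with counting noise only, the test called 98% of 2-fold and 100% of 4-fold changes. It called 0.058% of unchanged genes. The simulation left out the coefficient of variation of 0.202 between the libraries, so these rates do not carry over to them. Intervals and floors of 3 counts cover counting error only. DESeq2 1.42.0 size factors were an alternative. The protein comparison of the design was not run.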

Additional observations from a re-analysis of the deposited data

How the results depend on the processing

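The log2 ratio of the mesenchymal over the epithelial sum, 3.38 in TPM, was 3.52 in CPM, 3.23 with keratin pseudogenes added, 2.35 without KRT18 and VIM, 2.84 as a difference of mean log2(TPM + 1), and 0.49 without VIM, the last chosen after the data were seen. Leaving out 1 library gave 3.28 to 3.47. Of the 10 markers 8 were detected, and 8 to 9 under the other thresholds, units and the pooled table, with 8 and 8 when a library was left out. The edgeR exact test with an assumed coefficient of 0.1 called 1 marker in place of 6, and the other settings called 5 or 6. The sign of the log2 ratio between libraries turned for CDH2 with library totals, to 0.011, and, as a ratio of TPM, an alternative chosen after the data were seen, for CDH1 to 0.022, CDH2 to 0.081 and FN1 to 0.19. These ratios were small on either scale, and TPM also carries the length assigned in each library. Of the other alternatives for single markers, 39 kept their direction and, where a test was run, their call, 8 lost the call, 1 gained it and 2 changed size. Rescaling TPM without 390 nuclear copies of mitochondrial genes, which took 19.1% and 19.5% of all TPM, moved 8 of 10 levels by more than 1 SD, VIM to 802 and KRT18 to 65.2. No paired analysis was possible because both libraries belong to 1 group. At this depth EPCAM, with 21 counts a library, is the least precise of the markers with counts.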

Other observations

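RNA of most listed genes of TGF-beta signalling, which is known to induce the transition, was detected. Activity of the pathway was not measured, and the list holds inhibitors as well. Of its 13 genes 12 were detected, beside 63.8% of all protein-coding genes. The list median was 18.2 TPM against 6.18 over all protein-coding genes. SKI, a SMAD corepressor, was at 82.5 ± 5.63 TPM, TGFB1, a ligand, at 49.5 ± 5.54, SMAD3, a signal transducer, at 41.8 ± 1.07, and TGFBR2, the type II receptor, was the lowest detected at 3.14 ± 0.03. Among 7 antisense and corepressor genes of the ZEB proteins 6 were detected, with the histone deacetylases HDAC2 at 344 ± 68.2 and HDAC1 at 242 ± 2.91 TPM and the remodeller SMARCA4 at 201 ± 14.5.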
